A study of Mus musculus with 12 samples.

Results

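Expression of 46 genes for synaptic vesicle proteins and postsynaptic scaffolds was examined in brain tissue of mice after ischemia or sham surgery. The members were the rows of the deposited count table that carry the symbol of a listed gene. All 46 were found among the 39756 genes of the table, and all 46 had enough counts to be tested. They were grouped into 7 roles, namely vesicle proteins, SNARE proteins and their partners, synaptotagmins, active zone proteins, vesicle endocytosis proteins, trans-synaptic adhesion proteins, and postsynaptic scaffold and kinase.

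RNA was sequenced from 12 male C57BL/6J mice of 9 to 10 weeks, 4 in each of 3 groups, and all libraries carried the same batch label. Sham mice had surgery without occlusion and received saline. Vehicle mice received saline and had the middle cerebral artery closed by a filament for 45 min and then reopened (tMCAO, transient occlusion). LJP mice underwent the same occlusion and received Laminaria japonica polysaccharide (LJP), a sulfated polysaccharide of a brown seaweed, once daily for 14 days before surgery and afterwards. LJP was tried at several doses and the middle one was chosen for the later experiments, while the sample labels give no dose. The time point of the sequenced mice is not given in the sources used here. Each library came from brain tissue of 1 mouse, so neurons, glia, vessels and infiltrating cells were measured together. The study names this tissue the ischemic hemisphere in every group, although the Sham mice had no occlusion.

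At a chemical synapse, transmitter is stored in vesicles that dock at the active zone, a protein meshwork on the presynaptic membrane. SNARE proteins pull vesicle and membrane together, synaptotagmins sense the calcium that triggers fusion, and endocytosis returns the membrane for reuse. Neurexins and neuroligins bridge the cleft, and on the other side scaffolds such as PSD-95 and the Shank proteins hold receptors and signaling enzymes in place. These genes are transcribed mainly in neurons, which ischemia injures.

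Depth was similar across mice, with 17960353 to 22216315 counts per library. Reads on the 46 genes made up 2.65% to 2.78% of all counts in the Sham mice, 1.57% to 2.49% in the Vehicle mice and 2.41% to 2.68% in the LJP mice. Vehicle 2 stood apart, with the lowest share of all 12 mice, and Vehicle 1 followed at 1.99%. Over all 17558 genes tested, 3982 were higher and 3032 lower after occlusion with saline than after sham surgery, and with scaling by library size alone this split was 4737 higher and 2299 lower. Levels below are in CPM, read counts scaled to a common library size after normalization, and means are given ± SD of 4 mice.

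Promoter sequences were looked at because the members moved together. A window around the start site, from the RefSeq promoter table of GRCm38.p6, was given for 33 of the 46 members. Before sequences were chosen, members on a chromosome excluded from printing were set aside, whatever their p. Of the remaining members, 15 had a window whose first 250 bases lay wholly outside the gene in the count table. From these 15, the 3 with the smallest p in the Vehicle against Sham comparison and the 2 with the largest are shown. Each is the 250 bases before the start site, on the strand of the gene. Capitals mark a GC box (GGGCGG) or a CCAAT box (CCAAT), on either strand. Dlg4 (chr11:70016953-70017202, plus strand), Homer1 (chr13:93303507-93303756, plus strand) and Rims1 (chr1:22806159-22806408, minus strand) were lower in the Vehicle group. For Syp (chrX:7638330-7638579, plus strand) and Vamp1 (chr6:125215331-125215580, plus strand) no difference was detected.
Dlg4: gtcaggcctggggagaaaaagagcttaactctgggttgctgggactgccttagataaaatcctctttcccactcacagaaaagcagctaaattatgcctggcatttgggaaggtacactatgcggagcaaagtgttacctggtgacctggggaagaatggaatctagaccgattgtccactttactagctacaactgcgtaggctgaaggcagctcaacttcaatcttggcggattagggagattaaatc
Homer1: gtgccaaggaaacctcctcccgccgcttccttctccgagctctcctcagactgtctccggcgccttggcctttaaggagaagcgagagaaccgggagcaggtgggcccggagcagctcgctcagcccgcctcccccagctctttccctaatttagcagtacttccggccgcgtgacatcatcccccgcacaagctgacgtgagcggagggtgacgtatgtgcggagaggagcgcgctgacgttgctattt
Rims1: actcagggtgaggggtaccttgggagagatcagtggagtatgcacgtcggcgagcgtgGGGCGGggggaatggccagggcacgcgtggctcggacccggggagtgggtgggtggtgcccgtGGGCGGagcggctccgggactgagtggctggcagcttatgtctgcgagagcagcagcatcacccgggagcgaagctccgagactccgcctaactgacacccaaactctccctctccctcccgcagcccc
Syp: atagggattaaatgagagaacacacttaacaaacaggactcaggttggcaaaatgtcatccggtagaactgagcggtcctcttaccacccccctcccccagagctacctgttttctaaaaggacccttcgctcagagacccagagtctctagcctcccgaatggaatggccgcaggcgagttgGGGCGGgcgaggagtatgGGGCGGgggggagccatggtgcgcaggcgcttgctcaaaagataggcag
Vamp1: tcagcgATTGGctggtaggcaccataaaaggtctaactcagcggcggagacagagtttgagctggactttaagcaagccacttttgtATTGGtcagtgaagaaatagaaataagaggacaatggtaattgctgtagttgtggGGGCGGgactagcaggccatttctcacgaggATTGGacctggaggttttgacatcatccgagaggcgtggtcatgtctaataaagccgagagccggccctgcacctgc

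A GC box was found in 19 of the 33 member promoters (57.6%), against 32.9% of all 27025 promoters of the same length. It was in 9 of the 17 members that were lower in the Vehicle group and in 10 of the 16 that did not pass the test. A CCAAT box was found in 6 of the 33 (18.2%), against 34.5% of all promoters, and a TATA box (TATAAA) in 1 of them, Sv2b, against 13.0%. The median GC content was 61.2% in the members and 52.0% in all promoters, and it was 61.2% both in the members that were lower and in those that did not pass. Such matches describe the letters of these windows only.

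The first comparison, Vehicle against Sham, asked how the occlusion changed expression. All 46 members had a lower fitted level in the Vehicle group (45 with scaling by library size alone, where Dnm1 turned), with a median log2 fold change (log2FC) of -0.49 and a range from -1.50 for Unc13c to -0.03 for Dnm1. Of these, 23 fell at an edgeR adjusted p below 0.05, and none rose by edgeR, by DESeq2 or at an unadjusted p below 0.05. Over all genes tested, 17.3% were lower and 22.7% higher by the same rule, and the median log2FC was 0.00. DESeq2 called 28 members and 15.7% of all genes it tested lower, which were the 23 and also Nlgn2, Shank1, Stx1a, Syn2 and Syt11. By the thresholds of the study, an absolute log2FC over 0.58 and an unadjusted p below 0.01, applied here to the edgeR fit, 15 members and 6.39% of all genes were lower. The 4 Vehicle mice lay below all 4 Sham mice for 33 members, and 18.8% of all genes tested showed that pattern. The lowest medians by role were those of active zone and postsynaptic genes, as the plot of fold changes by role shows. In such mixed tissue, fewer neurons and less RNA per neuron cannot be told apart.

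**Figure D1:**
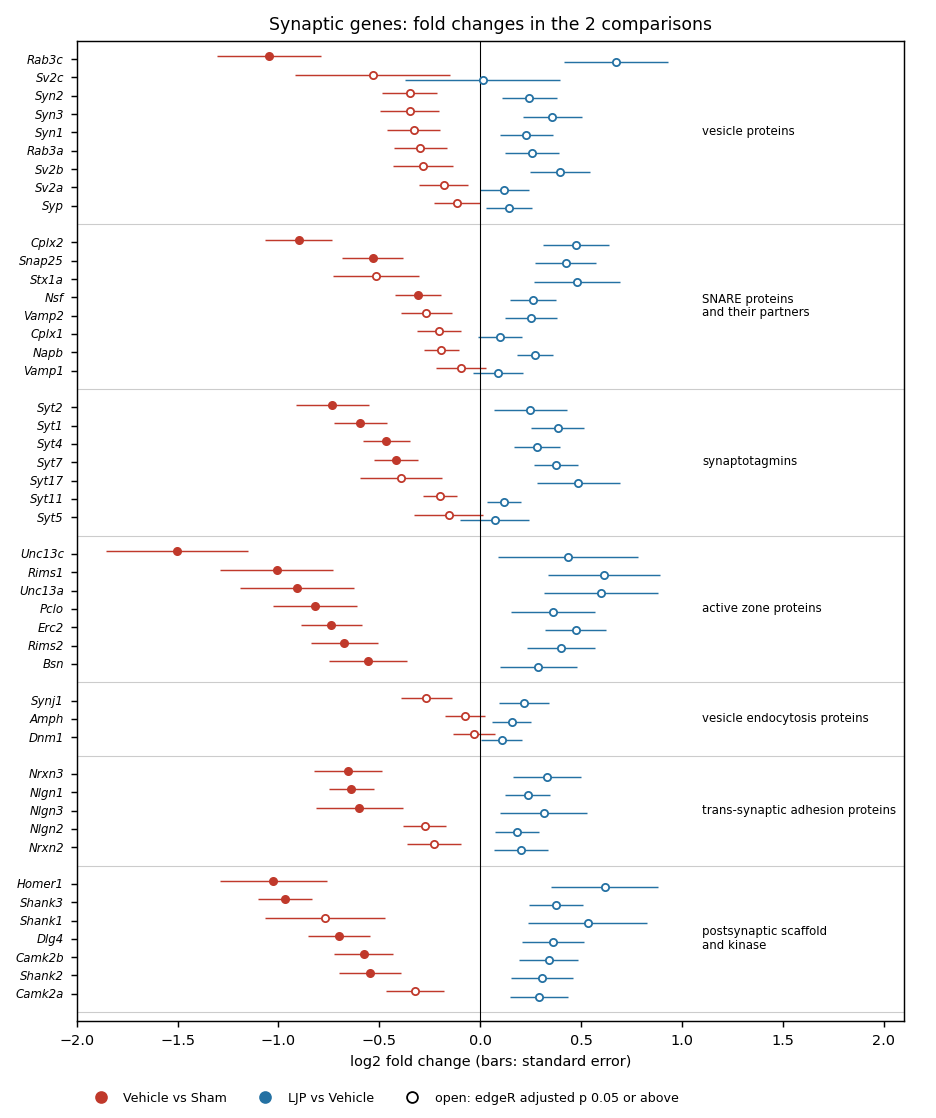
Log2 fold change of each of the 46 genes (x axis, with bars for its SE) in Vehicle against Sham (red) and LJP against Vehicle (blue), sorted within roles, and filled where the edgeR adjusted p was below 0.05. All red points lie left of 0, 23 of them filled, and all blue points lie right of 0, none filled; with scaling by library size alone, Dnm1 (red) and Sv2c (blue) cross 0.

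Active zone proteins were the role in which all 7 listed members fell, with a median log2FC of -0.82. Erc2 (Entrez 238988, chromosome 14 from 27622275 to 28478537 of GRCm38) codes for a scaffold of the active zone that binds RIM proteins. It was at 189.6, 176, 165 and 165 CPM in Sham mice 1 to 4, at 97.1, 71.8, 136 and 111 CPM in the Vehicle mice and at 132, 145, 143 and 159 CPM in the LJP mice. Each Vehicle mouse was below each Sham mouse, and Vehicle 3 lay within the range of the LJP mice. The log2FC of Erc2 was -0.74 (standard error, SE, 0.15, edgeR adjusted p = 0.00291), from 174 ± 11.9 to 104 ± 27.1 CPM (SD, n = 4 each).

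Unc13c (Entrez 208898, chromosome 9 from 73479422 to 74008155) codes for a Munc13 protein, which primes vesicles for fusion, and had the lowest fold change of the 46. Its levels were 85.0, 127, 92.8 and 87.6 CPM in the Sham mice, 47.6, 10.7, 49.4 and 31.0 CPM in the Vehicle mice and 59.5, 47.7, 38.8 and 40.9 CPM in the LJP mice. All 8 ischemic mice were below all Sham mice, and Vehicle 2 was the lowest by a wide margin. Unc13c fell by 1.50 on the log2 scale (SE 0.35, edgeR adjusted p = 0.00572). Without Vehicle 2 its log2FC was -1.21, still past the threshold.

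Rims1 and Rims2, which tether vesicles near calcium channels, fell with log2FC values of -1.01 (SE 0.28) and -0.67 (0.17), and Pclo, a giant scaffold, with -0.82 (0.21). Unc13a, the main Munc13 protein of forebrain synapses, had -0.91 (SE 0.28, edgeR adjusted p = 0.0230). Bsn, the other giant scaffold, had the largest p of the role. It was at 1146, 953, 1071 and 1008 CPM in the Sham mice, 646, 426, 948 and 819.8 CPM in the Vehicle mice and 789.8, 1019, 815 and 843 CPM in the LJP mice. Vehicle 3 was just below the lowest Sham mouse, and the groups did not overlap. The log2FC of Bsn was -0.56 (SE 0.19, edgeR adjusted p = 0.0360). The calls of Bsn and Unc13a were lost when only the Sham and Vehicle groups were fitted and without Sham 1 or Vehicle 1. That of Bsn was also lost without any other single Sham mouse and with scaling by library size alone, while the other 5 members of the role passed in each of 12 fits that left out 1 mouse.

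Of the postsynaptic genes, 5 of 7 fell, with a median log2FC of -0.70 over the 7. Shank3 (Entrez 58234, chromosome 15 from 89493013 to 89560261), a master scaffold that links the receptor complex to actin, had the smallest p of all 46 members. It was at 559, 579.6, 549 and 573 CPM in the Sham mice, 245, 234, 331 and 345 CPM in the Vehicle mice and 416, 417, 317 and 348 CPM in the LJP mice. No ischemic mouse reached the lowest Sham mouse, and LJP 3 lay below Vehicle 3 and 4. The log2FC of Shank3 in Vehicle against Sham was -0.97 (SE 0.13, edgeR adjusted p = 0.000377), which is a fall of 48.9%.

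Homer1, whose product ties Shank to glutamate receptors, had a log2FC of -1.03 (SE 0.27), and Dlg4, which codes for PSD-95, had -0.70 (0.15). The kinase genes Camk2a and Camk2b code for the alpha and beta subunits of a calcium-dependent kinase of the postsynaptic density. Camk2b was at 1215, 1178, 1196 and 1193 CPM in the Sham mice, 903, 528, 887 and 885 CPM in the Vehicle mice and 1010.4, 1078, 895 and 1066 CPM in the LJP mice. All Vehicle mice were below all Sham mice, Vehicle 2 lowest, and Camk2b fell by 0.58 on the log2 scale (SE 0.15, edgeR adjusted p = 0.00834). Camk2a was at 3114, 2844, 3111 and 3113 CPM in the Sham mice, 2071, 1884, 2974 and 2796 CPM in the Vehicle mice and 2627, 3283, 2749 and 3221 CPM in the LJP mice. The groups overlapped, because Vehicle 3 exceeded Sham 2, and the log2FC of -0.32 (SE 0.14) did not pass (edgeR adjusted p = 0.0877).

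In all 3 Shank genes Vehicle 1 and 2 were below Vehicle 3 and 4, by different distances. Shank1 was at 1175, 1114, 1231 and 1208 CPM in the Sham mice, 396, 352, 1001 and 1026 CPM in the Vehicle mice and 1058, 1122, 896 and 936 CPM in the LJP mice. Vehicle 1 and 2 were far below Vehicle 3 and 4, and with a log2FC of -0.77 (SE 0.30) Shank1 did not pass (edgeR adjusted p = 0.0546), although the 2 groups did not overlap. Shank2 was at 288, 272, 299 and 279.6 CPM in the Sham mice, 189, 126, 237 and 228 CPM in the Vehicle mice and 246, 258, 219.6 and 239 CPM in the LJP mice. Its Vehicle mice were all below its Sham mice, and it fell by 0.55 on the log2 scale (SE 0.15, edgeR adjusted p = 0.0144).

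Trans-synaptic adhesion genes fell in 3 of 5 cases. Nlgn1 (Entrez 192167, chromosome 3 from 25421808 to 26332866) codes for neuroligin 1, a postsynaptic partner of neurexins at excitatory synapses. It was at 86.8, 72.8, 73.4 and 72.3 CPM in the Sham mice, 54.2, 38.2, 53.7 and 50.2 CPM in the Vehicle mice and 58.5, 55.2, 52.8 and 64.3 CPM in the LJP mice. All 8 ischemic mice were below the 4 Sham mice, and unlike most members Nlgn1 was not lower in Vehicle 1 than in Vehicle 3 and 4. Nlgn1 fell by 0.64 on the log2 scale (SE 0.11, edgeR adjusted p = 0.00143). Nrxn3 and Nlgn3 fell with log2FC values of -0.65 (SE 0.17) and -0.60 (0.21), and Nlgn2, the neuroligin of inhibitory synapses, had -0.28 (0.11, edgeR adjusted p = 0.0575). The call of Nlgn3 held in 3 of 12 fits that left out 1 mouse, those without Vehicle 2, 3 or 4, and was lost with scaling by library size alone and when only the Sham and Vehicle groups were fitted.

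Nrxn2, a presynaptic neurexin, had the largest p of that role. It was at 646, 647, 664 and 658 CPM in the Sham mice, 530.3, 395, 657 and 649 CPM in the Vehicle mice and 628, 697, 592 and 651 CPM in the LJP mice. Vehicle 3 and 4 lay inside the Sham range and Vehicle 1 and 2 below it, and no difference was detected (log2FC -0.23, SE 0.13, edgeR adjusted p = 0.185).

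Among the synaptotagmins, Syt1, Syt2, Syt4 and Syt7 fell and Syt5, Syt11 and Syt17 did not pass. Syt1 (Entrez 20979, chromosome 10 from 108497650 to 109010980) codes for the fast calcium sensor of forebrain synapses. It was at 1352, 1209, 1251 and 1216 CPM in the Sham mice, 770.0, 616, 955 and 985 CPM in the Vehicle mice and 1026, 1084, 1035 and 1197 CPM in the LJP mice. The 3 groups were fully separated, with LJP between the other groups, and in Vehicle against Sham Syt1 fell by 0.60 on the log2 scale (SE 0.13, edgeR adjusted p = 0.00428). Syt7, a slower sensor linked to asynchronous release, was at 410.3, 386, 417 and 415 CPM in the Sham mice, 284, 240.1, 342 and 353 CPM in the Vehicle mice and 394, 421, 362 and 404 CPM in the LJP mice. Its Vehicle mice were below every other mouse, its LJP mice overlapped the Sham mice, and its log2FC in Vehicle against Sham was -0.42 (SE 0.11, edgeR adjusted p = 0.0105).

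Syt2, the fast sensor of fast-spiking interneurons and hindbrain synapses, had a log2FC of -0.73 (SE 0.18), and Syt4, which has a substitution in its first calcium-binding domain, had -0.46 (0.11). Syt5 was at 151, 147, 157 and 158 CPM in the Sham mice, 188, 84.5, 137 and 139 CPM in the Vehicle mice and 147, 141, 132 and 157 CPM in the LJP mice. Vehicle 1 was the highest of all 12 mice for Syt5 and Vehicle 2 the lowest, and no difference was detected (log2FC -0.16, SE 0.17, edgeR adjusted p = 0.488). Without Vehicle 2 its log2FC was 0.01. Syt11 had -0.20 (SE 0.08) and Syt17 had -0.39 (0.20).

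SNARE proteins and their partners fell in 3 of 8 cases, Snap25, Cplx2 and Nsf. Cplx2 (Entrez 12890, chromosome 13 from 54301964 to 54383923) and Cplx1 code for complexins, which clamp the assembled SNARE complex until calcium arrives. Cplx2 was at 1899, 1895, 1902 and 1890.1 CPM in the Sham mice, 924, 662, 1258 and 1222 CPM in the Vehicle mice and 1547, 1437, 1228 and 1436 CPM in the LJP mice. The Sham mice lay close together, all ischemic mice were far below them, and LJP 3 lay between Vehicle 4 and 3. Cplx2 fell by 0.90 on the log2 scale (SE 0.17, edgeR adjusted p = 0.00177).

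Cplx1 was at 659.7, 683, 704 and 729 CPM in the Sham mice, 604, 474, 685 and 648 CPM in the Vehicle mice and 618, 685, 589 and 690.1 CPM in the LJP mice. These groups overlapped and Cplx1 did not pass (log2FC -0.20, SE 0.11, edgeR adjusted p = 0.147). Snap25, whose product is the SNARE of the presynaptic membrane cleaved by botulinum toxin A, was at 1987, 1682, 1859 and 1822 CPM in the Sham mice, 1100.2, 932, 1574 and 1472 CPM in the Vehicle mice and 1565, 1727, 1578 and 1943 CPM in the LJP mice. Its Vehicle mice were all below its Sham mice and its LJP mice overlapped both groups, and it fell by 0.53 on the log2 scale (SE 0.15, edgeR adjusted p = 0.0146). Nsf, the ATPase that takes SNARE complexes apart, had -0.31 (SE 0.11, edgeR adjusted p = 0.0458). Its call held in 3 of 12 fits that left out 1 mouse, again those without Vehicle 2, 3 or 4, and was lost with scaling by library size alone, with no filter on low counts and when only the Sham and Vehicle groups were fitted.

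The vesicle SNARE genes Vamp1 and Vamp2 code for the synaptobrevins. Vamp2, the main form in forebrain, was at 979, 941, 977 and 967 CPM in the Sham mice, 798, 579, 934 and 898 CPM in the Vehicle mice and 933, 983, 872 and 1031 CPM in the LJP mice. Its Vehicle mice were below its Sham mice by a small distance for Vehicle 3, and the log2FC was -0.27 (SE 0.13, edgeR adjusted p = 0.108). Vamp1 was at 144, 163, 159 and 164 CPM in the Sham mice, 145, 119, 171 and 154 CPM in the Vehicle mice and 128, 172, 145 and 182 CPM in the LJP mice. The 3 groups overlapped, and no difference was detected (log2FC -0.10, SE 0.12, edgeR adjusted p = 0.561). Napb, a neuronal cofactor of Nsf, was at 422, 381, 386 and 378 CPM in the Sham mice, 347, 308, 367 and 349 CPM in the Vehicle mice and 379, 401, 396 and 478 CPM in the LJP mice. Its Vehicle mice were below every other mouse, yet the log2FC of -0.19 (SE 0.09) did not pass in Vehicle against Sham (edgeR adjusted p = 0.0974). Stx1a, the syntaxin partner of Snap25, had -0.52 (SE 0.21, edgeR adjusted p = 0.0684).

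Of the 9 genes for vesicle proteins, edgeR called 1 lower, Rab3c, and DESeq2 called Syn2 as well. The 4 Vehicle mice lay below all Sham mice for 5 of the 9. Rab3c (Entrez 67295, chromosome 13 from 110054187 to 110280996) codes for a small GTPase on the vesicle surface. It was at 383, 377, 367 and 328 CPM in the Sham mice, 133, 86.1, 236.5 and 249 CPM in the Vehicle mice and 314, 254, 258 and 296 CPM in the LJP mice. The 3 groups did not overlap, with LJP in the middle, and Rab3c fell by 1.05 on the log2 scale in Vehicle against Sham (SE 0.26, edgeR adjusted p = 0.00752). Its paralog Rab3a had a log2FC of -0.30 (SE 0.13, edgeR adjusted p = 0.0906).

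Synaptophysin, the product of Syp, is the most used marker of synaptic vesicles. Syp was at 1240.2, 1180.35, 1265 and 1253 CPM in the Sham mice, 1169, 870.1, 1250.4 and 1271 CPM in the Vehicle mice and 1234, 1299, 1134 and 1368 CPM in the LJP mice. Vehicle 2 was low and the other 3 Vehicle mice lay close to the Sham range, and no difference was detected (log2FC -0.12, SE 0.11, edgeR adjusted p = 0.440). The synapsin genes Syn1, Syn2 and Syn3, whose products tie vesicles to the cytoskeleton, had log2FC values of -0.33, -0.35 and -0.35 and did not pass.

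The SV2 genes code for vesicle glycoproteins, of which SV2A is the binding site of levetiracetam. Sv2a was at 554, 552, 567 and 550.4 CPM in the Sham mice, 532, 345, 541 and 542 CPM in the Vehicle mice and 523, 555, 507 and 542 CPM in the LJP mice. Sv2b was at 472, 380.2, 429 and 415 CPM in the Sham mice, 329.9, 246, 433 and 383 CPM in the Vehicle mice and 396, 462, 455 and 517 CPM in the LJP mice. Sv2c was at 69.0, 66.5, 54.3 and 49.2 CPM in the Sham mice, 78.6, 11.9, 44.5 and 30.3 CPM in the Vehicle mice and 44.6, 45.1, 37.3 and 39.6 CPM in the LJP mice. For Sv2a the Vehicle mice were just below the Sham mice except Vehicle 2, which was far below, for Sv2b the groups overlapped, and for Sv2c, which is enriched in the basal ganglia, Vehicle mice held both the highest and the lowest level of all 12. They did not pass in Vehicle against Sham, with log2FC values of -0.18 (SE 0.12), -0.28 (0.15) and -0.53 (0.38).

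Vesicle endocytosis genes had the median log2FC nearest to 0 of the 7 roles, at -0.08, and none of the 3 passed by edgeR, by DESeq2 or at an unadjusted p below 0.05. Dnm1, whose product dynamin 1 cuts vesicles from the membrane, was at 1613, 1556, 1682 and 1724 CPM in the Sham mice, 1600.1, 1369.8, 1770.3 and 1694 CPM in the Vehicle mice and 1519.7, 1899.9, 1622 and 1880.05 CPM in the LJP mice. The groups overlapped throughout, and the log2FC of -0.03 (SE 0.10) turned to 0.04 with scaling by library size alone. Synj1, for the phosphatase synaptojanin 1 that strips clathrin coats, was at 424, 379, 367 and 358 CPM in the Sham mice, 355, 227, 356 and 331 CPM in the Vehicle mice and 345, 381, 362 and 385 CPM in the LJP mice. The Vehicle mice lay just below the Sham mice, except Vehicle 2, which was far below, and Synj1 did not pass (log2FC -0.27, SE 0.13, edgeR adjusted p = 0.105). Amph, for the membrane-bending protein amphiphysin, had -0.08 (SE 0.10).

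Levels were compared between genes only per length, on the mean CPM per kb of the deposited gene length in the Sham mice. The highest were Snap25 at 711 ± 48.5, Camk2a at 536 ± 23.6, Syp at 497 ± 15.2, Vamp2 at 446 ± 8.08 and Dnm1 at 368 ± 16.6 CPM per kb (SD, n = 4 each). Cplx1 at 317 ± 13.5, Cplx2 at 305 ± 0.815 and Rab3a at 299 ± 9.32 CPM per kb followed. Each step from Snap25 down to Cplx1 exceeded the SD of both neighbours, while Cplx2 lay within 1 SD of Cplx1, and Rab3a within 1 SD of its own of Cplx2. Of these 8 genes, Snap25 and Cplx2 fell in Vehicle against Sham.

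The Vehicle mice differed from each other more than the mice of the other groups. The median coefficient of variation over the 46 genes was 22.5% for Vehicle, 4.46% for Sham and 8.09% for LJP mice. Vehicle 2 had the lowest level of all 12 mice for 46 of 46 members, and Vehicle 1 was the second lowest of its group for 37. Relative to the Sham mean, the median log2 level over the members was -0.52 in Vehicle 1, -0.99 in Vehicle 2, -0.19 in Vehicle 3 and -0.22 in Vehicle 4. In the LJP mice it was -0.21, -0.10, -0.23 and -0.04. The heat map of single mice shows these columns, and Vehicle 3 and 4 both lay inside the LJP range for 25 members.

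**Figure D2:**
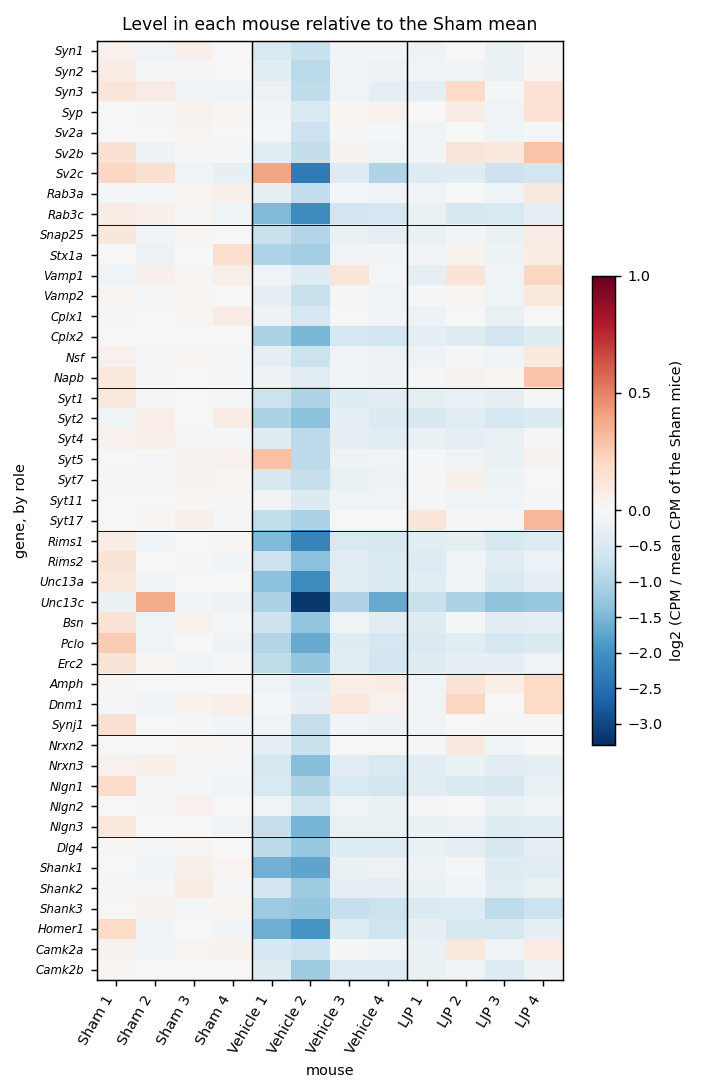
Level of each of the 46 genes (rows, by role) in each of the 12 mice (columns), as log2 of CPM over the mean CPM of the Sham mice, with blue for lower and red for higher levels on 2 separate linear scales below and above 0. The column of Vehicle 2 is blue in every row, Vehicle 1 is next, and Vehicle 3 and 4 are closer to the LJP columns.

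Leaving out Vehicle 1 and 2 together, a choice made after seeing the data, left 24 members called lower in Vehicle against Sham by edgeR, with 14% of all genes lower, and 21 of the 24 were shared with the fit to all mice. Bsn and Nsf were lost, and Nlgn2, Shank1 and Sv2c were gained. In that fit 42 members had a fold change below 0, while Syp, Vamp1, Amph and Dnm1 had log2FC values between 0.02 and 0.07. Leaving out single mice gave 19 to 34 members called lower, the lowest without Sham 1, where 11.3% of all genes were lower, and the highest without Vehicle 3, where 20.6% were. Without Vehicle 4 the number was 28, with 18.7% of all genes.

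Markers of several cell types were measured in the same mice, and some of these lists differed between Sham and Vehicle. Pan-neuronal genes that are not synaptic, such as Map2 and Rbfox3, were lower for 9 of 14, with a median log2FC of -0.44, close to that of the 46. Their summed level was 6177 to 6357 CPM in the Sham, 3573 to 5447 CPM in the Vehicle and 5108 to 5900 CPM in the LJP mice. Striatal neuron markers were lower for 9 of 9, with a median of -2.04, and their sum was 3053 to 3593 CPM in the Sham, 246 to 1257 CPM in the Vehicle and 1136 to 2065 CPM in the LJP mice. Cortical excitatory markers were higher for 1 of 8 and lower for 1 of 8 (1916 to 2287, 1860.2 to 2495 and 2261 to 2659.9 CPM), and GABA neuron markers had a median of -0.28, with 1 of 9 lower at an unadjusted p below 0.05 (1620.1 to 1832, 692 to 1569 and 1377 to 1624 CPM).

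Microglia and macrophage markers were higher for 9 of 10 in Vehicle against Sham, with a sum of 279 to 290.3 CPM in the Sham, 786 to 1322 CPM in the Vehicle and 572 to 1099.8 CPM in the LJP mice. Endothelial markers were higher for 6 of 8 (237 to 255, 331 to 1574 and 235 to 300.0 CPM) and fibroblast and meninges markers for 6 of 7 (177 to 205, 240.3 to 1561 and 163 to 243 CPM). Vehicle 2, the lowest mouse for all 46 members, held the highest sums of these 3 lists and the lowest of the 4 neuronal lists. Neutrophil markers summed to 200 CPM in Vehicle 1 and to 73.8 CPM or less in every other mouse, and 1 of 8 had enough counts to be tested. Astrocyte markers were higher for 2 of 9 and lower for 1, oligodendrocyte markers higher for 1 of 8, and thalamus markers higher for 1 of 6. Of the cerebellum and hindbrain markers 2 of the 7 tested were higher and 1 was lower. Their sum was 67.0 to 84.3 CPM in the Sham, 84.9 to 127 CPM in the Vehicle and 82.8 to 101 CPM in the LJP mice, so that each Vehicle mouse lay above the Sham mice, while Gabra6 and Hoxb5 were at or near 0 in all groups. The part of these shifts in the fall of the synaptic genes was not tested.

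**Figure D3:**
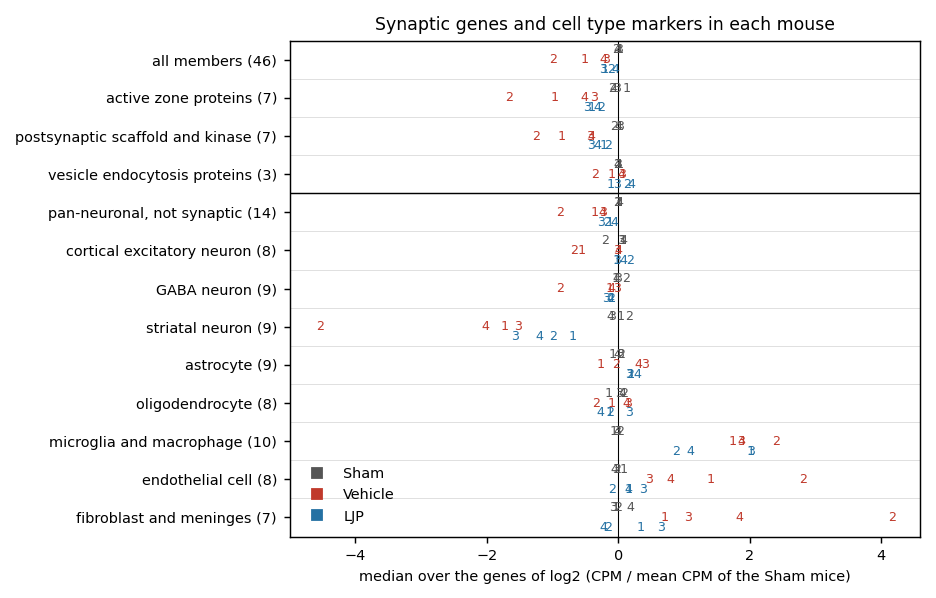
Median over the genes of each list (number of genes in parentheses) of log2 CPM over the mean CPM of the Sham mice (x axis), for each mouse, printed as its number and colored by group, with the synaptic genes above the black line and cell type markers below. Vehicle 2 lies farthest left for the synaptic and most neuronal lists, at -0.99 for all members, and farthest right for microglia, endothelial and fibroblast markers.

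Within a mouse, the ratio of 2 paralogs does not depend on how the library is scaled. This was tested after seeing the data for 9 pairs in 3 comparisons, 27 exact permutation tests in all, where the smallest two-sided p that 4 against 4 mice allow is 0.0286. The log2 ratio of Cplx2 to Cplx1 was 1.53, 1.47, 1.43 and 1.37 for Sham, 0.61, 0.48, 0.88 and 0.91 for Vehicle and 1.32, 1.07, 1.06 and 1.06 for LJP mice. The 3 groups did not overlap, and the ratio was lower by 0.73 in Vehicle than in Sham, higher by 0.41 in LJP than in Vehicle and lower by 0.32 in LJP than in Sham. Each of these had an exact permutation p of 0.0286, the smallest possible, or 0.110 after adjustment over the 27 tests. With that floor, a ratio could pass the correction only if most of the 27 tests reached the smallest p. No pair passed it, which therefore does not show that the ratios were unchanged.

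The ratio of Shank3 to Shank1 was -1.06 ± 0.09 in the Sham and -1.43 ± 0.06 in the LJP mice (SD, n = 4 each) with no overlap, and that of Shank3 to Shank2 was 0.99 ± 0.09 and 0.63 ± 0.11, also with no overlap. In the Vehicle mice the ratio of Shank3 to Shank1 was split, at -0.69 and -0.59 in Vehicle 1 and 2 and -1.60 and -1.57 in Vehicle 3 and 4. The ratio of Sv2c to Sv2a was lower by 0.45 in LJP than in Sham and that of Sv2c to Sv2b by 0.62, with no overlap in either. For Vamp2 to Vamp1 and Camk2b to Camk2a the groups overlapped in all 3 comparisons. The plot of paralogs in each mouse shows the levels behind these ratios.

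**Figure D4:**
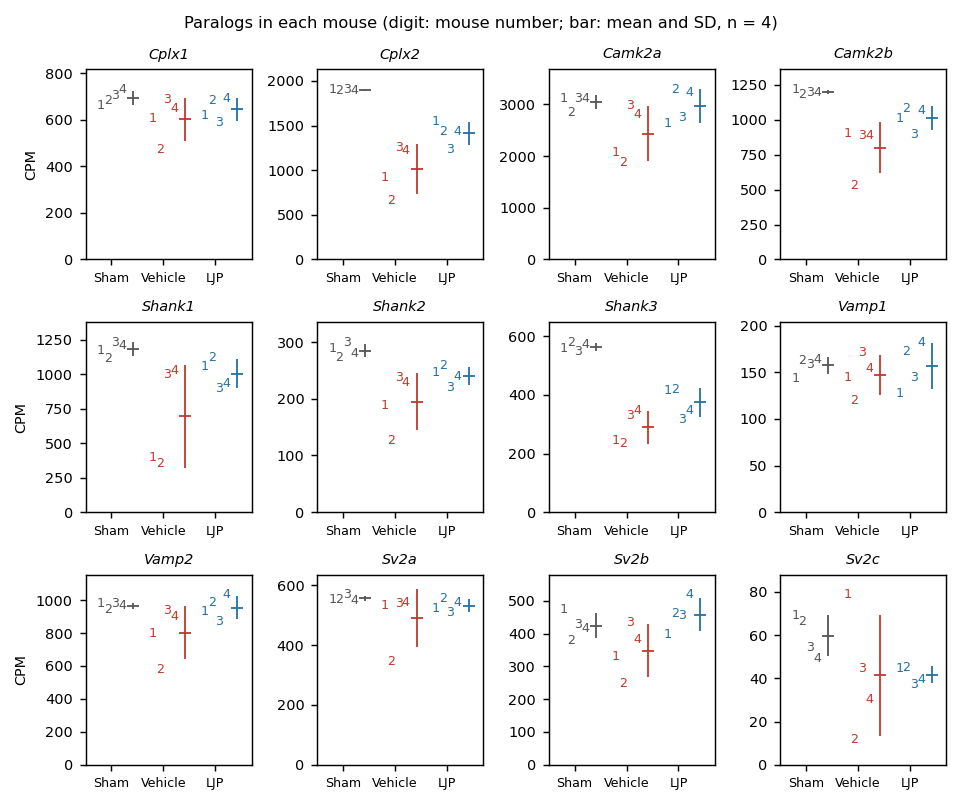
CPM of 12 paralogous genes in each mouse, with the mouse number as the symbol, groups along the x axis and the mean and SD of 4 mice as a bar. Cplx2 is separate from Sham in all ischemic mice while Cplx1 overlaps, and Vehicle 1 and 2 lie far below Vehicle 3 and 4 for Shank1.

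The second comparison, LJP against Vehicle, asked what the polysaccharide changed after the occlusion. It shares the Vehicle mice with the first, so that a low Vehicle mouse moves both. All 46 members had a higher fitted level in the LJP group (45 with scaling by library size alone, where Sv2c turned), with a median log2FC of 0.30 and a range from 0.01 for Sv2c to 0.67 for Rab3c. No member passed an adjusted p below 0.05 by edgeR, and among all genes tested 0% were higher and 0.0228% lower by that rule. At an unadjusted p below 0.05, 19 members were higher, against 12.3% of all genes. DESeq2 called 5 members higher, Cplx2, Erc2, Napb, Syt1 and Syt7, and 3.88% of all genes it tested.

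The 4 LJP mice lay above all 4 Vehicle mice for 4 members, Rab3c, Napb, Syt1 and Syt7, and 5.77% of all genes tested showed that pattern. Syt7 had the smallest p of the 46, with 305 ± 52.8 CPM in the Vehicle and 395 ± 24.8 CPM in the LJP mice, a log2FC of 0.38 (SE 0.11, edgeR adjusted p = 0.0720). Erc2 had 0.47 (SE 0.15, edgeR adjusted p = 0.0806), Napb 0.27 (0.09, 0.0856), Syt1 0.38 (0.13, 0.0930), Cplx2 0.47 (0.17, 0.0968) and Snap25 0.42 (0.15, 0.100). Rab3c, with the largest fold change at 0.67 (SE 0.26), went from 176 ± 79.5 to 281 ± 29.5 CPM. Among the paralogs, Camk2b had 0.34 and Camk2a 0.29, Vamp2 0.25 and Vamp1 0.09, and Shank1, Shank2 and Shank3 had 0.53, 0.30 and 0.37.

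The number of calls depended on single Vehicle mice. Without Vehicle 3 edgeR called 13 members and 8.46% of all genes higher in LJP. Without Vehicle 4 it called 4 members (Rab3c, Shank3, Syt1 and Syt7) and 3.35% of all genes. Without Vehicle 1 and 2 together, 35 members had a fold change above 0 and 11 below 0, and edgeR called 0% of all genes higher. The 11 were Syt2 at -0.10 and Bsn, Cplx1, Dnm1, Nlgn3, Nrxn2, Shank1, Sv2a, Syn1, Syp and Vamp1 between -0.06 and 0.00. Without Vehicle 2 alone, 5 members were below 0, namely Sv2c at -0.30, Syt5 at -0.10, and Sv2a, Vamp1 and Cplx1 between -0.02 and 0.00. The median log2FC over the 46 genes ranged from 0.15 to 0.42 as single mice were left out.

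The third comparison, LJP against Sham, asked what remained different after occlusion under LJP. The median log2FC of the members was -0.11, with 39 below 0 and 7 above (30 and 16 with scaling by library size alone), and the mean level in LJP lay between the Sham and Vehicle means for 39 members and above both for 7. Shank3 was called lower, with 565 ± 13.7 CPM in the Sham and 375 ± 50.3 CPM in the LJP mice and a log2FC of -0.59 (SE 0.13, edgeR adjusted p = 0.0235). Over all genes tested, 0.9% were lower and 3.85% higher by this rule. It was the single call of edgeR among the members, and DESeq2 called Nlgn1 and Unc13c as well, with 1.98% of its genes lower. By the thresholds of the study 2 members and 0.797% of all genes were lower. The call of Shank3 was lost without any single Sham mouse and without LJP 3 or LJP 4.

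At an unadjusted p below 0.05, 7 members were lower in LJP than in Sham, against 7.29% of all genes. Beside Shank3 they were Unc13c with a log2FC of -1.07 (SE 0.35), Nlgn1 with -0.40 (0.11), Syt2 with -0.49 (0.18), Cplx2 with -0.43 (0.17), Pclo with -0.46 (0.21) and Dlg4 with -0.34 (0.15). The 4 LJP mice lay below all 4 Sham mice for 20 members, and 12% of all genes did so. Of the active zone genes 6 of 7 were separate in this way, of the postsynaptic genes 5 of 7, and of the endocytosis genes 0 of 3.

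The spread of the Vehicle mice enters this comparison through the shared fit. When only the Sham and LJP mice were fitted, 21 members were called lower, with Cplx2 at an edgeR adjusted p of 0.000198 and Shank3 at 0.000144, and 11.8% of all genes were called lower. Without Vehicle 2, 11 members and 5.5% of all genes were called lower, and without Vehicle 1 and 2 together 22 members and 12% of all genes.

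A further 73 synaptic genes that are not members were counted by the same rules. In Vehicle against Sham 37 were lower and 2 higher, with a median log2FC of -0.43, against 17.3% of all genes lower and 22.7% higher. In LJP against Vehicle edgeR called none, against 0% of all genes higher and 0.0228% lower. At an unadjusted p below 0.05, 27 were higher, against 12.3% of all genes, and 1 was lower, against 3049 of 17558. DESeq2 called 7 higher and 1 lower, against 3.88% and 9.48% of the genes it tested. In LJP against Sham 1 was lower, against 0.9% of all genes. Doc2b, for a calcium sensor of spontaneous release, was at 76.0, 81.3, 68.4 and 68.7 CPM in the Sham mice, 26.3, 14.9, 30.4 and 30.6 CPM in the Vehicle mice and 49.5, 42.5, 28.3 and 38.6 CPM in the LJP mice. It fell by 1.53 on the log2 scale in Vehicle (SE 0.21, edgeR adjusted p = 0.000372) and was the gene of the 73 called in LJP against Sham, at -0.89 (SE 0.21, edgeR adjusted p = 0.0289). That call was lost without any single Sham mouse and without LJP 2, LJP 3 or LJP 4. Synpr, for the vesicle protein synaptoporin, was at 87.3, 82.0, 78.4 and 73.4 CPM in the Sham mice, 25.7, 23.0, 47.6 and 49.6 CPM in the Vehicle mice and 64.3, 59.8, 60.8 and 73.4 CPM in the LJP mice. Napg, a relative of Napb, was at 138, 132, 143 and 138 CPM in the Sham mice, 93.1, 88.6, 114 and 111 CPM in the Vehicle mice and 122, 122, 120.4 and 135 CPM in the LJP mice. Both had Vehicle mice below every other mouse, with log2FC values of -1.14 (SE 0.21) and -0.44 (0.09) in Vehicle against Sham.

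The other direction was rare. Homer3, a paralog of Homer1 that is abundant in Purkinje cells, was at 15.7, 19.5, 17.8 and 18.1 CPM in the Sham mice, 37.7, 48.9, 28.7 and 32.9 CPM in the Vehicle mice and 25.0, 23.5, 28.8 and 24.3 CPM in the LJP mice. All Vehicle mice were above all Sham mice, with Vehicle 2 highest, and Homer3 rose by a log2FC of 1.06 (SE 0.15, edgeR adjusted p = 0.000378), while Homer1 fell. Rab3d, a Rab3 paralog of secretory cells, was at 9.11, 8.99, 10.4 and 13.3 CPM in the Sham mice, 13.5, 19.1, 13.4 and 13.5 CPM in the Vehicle mice and 10.5, 11.6, 12.8 and 12.5 CPM in the LJP mice. It rose by 0.51 on the log2 scale (SE 0.16, edgeR adjusted p = 0.0225), with Sham 4 close below the Vehicle mice. Without Sham 1, and when only the Sham and Vehicle groups were fitted, 1 of the 73 genes was called higher. Lrfn2, for a postsynaptic adhesion protein, was the next of the genes above 0 and did not pass, at 28.0, 25.9, 26.6 and 28.8 CPM in the Sham mice, 28.6, 22.3, 31.8 and 29.9 CPM in the Vehicle mice and 34.9, 28.8, 25.9 and 33.2 CPM in the LJP mice. Its groups overlapped, and its log2FC in Vehicle against Sham was 0.04 (SE 0.12).

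Some of the members share their position with other genes. An overlapping gene was listed for 24 of the 46, and for 4 of them it had at least 10% of the reads of the member. These were Syn3, with Timp3 at 188% and Fbxo7 at 72.5% of its mean count, Napb, with LOC108168731 at 27.5%, Syn1, with Araf at 18.2%, and Unc13a, with Colgalt1 at 13.0%. Overlap here refers to whole gene spans, introns included, and whether any reads were shared was not tested. LOC108168731 lies on the same strand as Napb, and the other neighbours named lie on the opposite strand. The strand setting of the counting is not given in the sources used here.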

How the data were processed

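Poly(A) RNA was prepared from brain tissue of each of 12 mice, named the ischemic hemisphere by the study in every group, and sequenced. The authors deposited raw read counts per gene and mouse, with gene positions that match GRCm38. The submitters' processing notes name featureCounts, DESeq2, GRCm39 and mm10, and the strand setting and the handling of shared reads are not given in the sources used here. Groups were taken from the sample labels, and replicates were separate mice.

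Counts were analysed with edgeR 4.0.16 under R 4.3.3. After filterByExpr, 17558 of 39756 genes remained. Library sizes were normalized with TMM. The quasi-likelihood fit used all 12 mice, with 1 coefficient for each group. Benjamini-Hochberg adjustment ran over all genes tested, and an adjusted p below 0.05 was a call. The standard error (SE) is the log2 fold change (log2FC) divided by the square root of F. Alternatives were DESeq2 1.42.0, RLE factors, library size alone, no filter, a fit of 2 groups only, a replicate block, the thresholds of the study applied to the edgeR fit, and leaving out each mouse. Leaving out Vehicle 1 and 2 together and the tests of paralog ratios were added after seeing the data. Paralog ratios were compared by exact permutation tests with scipy 1.17.1, two-sided, and plots were drawn with matplotlib 3.10.9. The fit was also run on simulated counts, and the outcome is not given here. No pair of mice of the same group agreed within sampling noise, and the smallest chi-square was 2.48 times its degrees of freedom.

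Values in every mouse are given for the members with the smallest and the largest p of each role in Vehicle against Sham, the 6 with the smallest p in LJP against Vehicle, members called in LJP against Sham, the named paralogs, and, of the other synaptic genes, the 3 lower and 3 higher with the smallest p. The members, the lists and these rules were chosen with earlier results of these data known, so counts over them are not independent evidence. A floor of 3 counts was 0.129 to 0.173 CPM, far below every member, and covers counting error only.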

Additional observations from a re-analysis of the deposited data

Results flagged for a closer look

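In 6 of 138 groups of 4 mice, the gap of an extreme mouse to the nearest of its group as a share of the range of that group exceeded Dixon's 95% critical value, and chance gives about 6.9 such groups. In the Vehicle group this was Vehicle 2, which was low for Sv2a (gap of 0.949 of the range), Syt11 (0.881) and Camk2b (0.953). In the Sham group Sham 1 was high for Napb (0.838) and Nlgn1 (0.925), and Sham 2 was low for Camk2a (0.990).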

How the results depend on the processing

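The median log2 fold change of the members kept its sign without each single mouse, from -0.559 to -0.341 in Vehicle against Sham, 0.147 to 0.420 in LJP against Vehicle and -0.165 to -0.0735 in LJP against Sham. In Vehicle against Sham, 19 to 34 members were lower without single mice, 15 by the thresholds of the study on the edgeR fit, and 28 by DESeq2. In LJP against Vehicle, 5 were higher by DESeq2 and 0 to 13 without single mice. In LJP against Sham, 3 were lower by DESeq2, 21 with only the 2 groups, 22 without Vehicle 1 and 2 together, 2 by the thresholds of the study and 0 to 11 without single mice.

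Same-numbered mice did not deviate together (correlations from -0.41 to 0.17), so the numbers name mice only. With the number as a replicate block, 0 members were lower in LJP against Sham, where Shank3 was lost, 0 other synaptic genes were lower there, where Doc2b was lost, and 21 members and 15.1% of all genes were lower in Vehicle against Sham, where Bsn, Nlgn3 and Nsf were lost and Stx1a was gained.

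Of the other synaptic genes in Vehicle against Sham, 1 was higher with only the 2 groups and by the thresholds of the study (1 to 2 without single mice), and 18 were lower by those thresholds (27 to 48 without single mice). In LJP against Vehicle, 7 were higher by DESeq2, 1 with no filter, 3 by the thresholds of the study and 0 to 22 without single mice, and 1 was lower by DESeq2 (0 to 1 without single mice). In LJP against Sham, 1 was higher by DESeq2, with only the 2 groups and without Vehicle 1 and 2 (0 to 1 without single mice), and 4 were lower by DESeq2, 28 with only the 2 groups, 32 without Vehicle 1 and 2, 3 by the thresholds of the study and 0 to 12 without single mice.

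Reversed log2 fold changes in Vehicle against Sham were 0.0241 for Syp, 0.0407 for Vamp1, 0.0571 for Amph and 0.0702 for Dnm1 without Vehicle 1 and 2, and 0.0441 for Dnm1 with library size alone. Without single mice, Syt5 ranged from -0.346 to 0.0109 and Dnm1 from -0.0806 to 0.0322, above 0 without Vehicle 2. Those in LJP against Vehicle were -0.0268 for Sv2a, -0.0560 for Vamp1, -0.0485 for Cplx1 and -0.0173 for Shank1 without Vehicle 1 and 2 (with Bsn, Dnm1, Nlgn3, Nrxn2, Syn1, Syp and Syt2 from -0.102 to -0.00323), and -0.00531 for Sv2c with library size alone. Without single mice, Sv2a ranged from -0.0172 to 0.174, Vamp1 from -0.000208 to 0.176 and Cplx1 from -0.00103 to 0.17, below 0 without Vehicle 2, as was Syt5 at -0.104. Sv2c ranged from -0.298 to 0.532, below 0 without Vehicle 2, Vehicle 4, LJP 1 or LJP 2. The cause was not tested.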
